A study of Mus musculus with 4 samples.

Results

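The 10 glutathione S-transferase genes of the mu class (Gstm1 to Gstm7) and of the pi (Gstp1), theta (Gstt1) and omega (Gsto1) classes were followed in sorted cells of the collecting duct and its precursor, the ureteric bud, from newborn mice. They were matched by the accession of each array probe, which gave 11 probes for 9 of the 10 genes, with no probe matched for Gstm7. Of these 9 genes, 8 entered the comparison of 16119 genes. Gstm6 was not well above background on any array, so it has no fold. The family was chosen by its knockout and wild-type levels on these same arrays, so the values below describe its members and no member is tested.

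Glutathione S-transferases join the thiol tripeptide glutathione to reactive electrophiles, which makes these compounds soluble and ready for export. The mu genes lie side by side in a cluster, and many of them respond to the oxidant-sensing factor NRF2. In the kidney the alpha class is best known from the proximal tubule and the pi class from distal tubule and collecting duct. Omega enzymes differ from the others in that they act mainly as thiol reductases.

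The cells came from mice in which the HoxB7 promoter, active in the ureteric bud lineage, drives Cre recombinase together with EGFP. Knockout animals carried PRR flox/flox and controls PRR+/+, PRR being the (pro)renin receptor encoded by Atp6ap2. Both genotypes carried the CreEGFP transgene. EGFP-positive cells were sorted at postnatal day 1, pooled, and 0.5 µg of total RNA was labelled for each channel of 4 two-colour Agilent arrays on 1 slide. Arrays KO_vs_WT 1 and 2 held knockout RNA in Cy5 and wild-type pool 1 or 2 in Cy3. Arrays WT_self 1 and 2 held pool 1 or pool 2 in both dyes. These groups follow the source named for each channel. The sample titles name the arrays the other way round, and under them every direction between knockout and wild type would turn. The sample descriptions also exchange the pool numbers of the self arrays. The pool behind each knockout channel is not numbered in the source labels.

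Each array had between 18421 and 22713 of its 41174 probes well above background in Cy5. In Cy3 the range was 14935 to 18569 on 3 arrays, but 28 on KO_vs_WT 1, whose Cy3 is not used. Atp6ap2 read 8.08 and 7.72 in knockout and 8.38 and 8.51 in wild type (log2 Cy5 level). Ureteric bud markers were well above background for 13 of 13 genes on every array, and proximal tubule markers for 8 and 9 of 11 on the knockout arrays, 8 in pool 1 and 11 in pool 2. The summed linear level of 8 tested proximal tubule genes was 4104 and 2592 on KO_vs_WT 1 and 2, 5741 in pool 1 (7 genes, since the Slc22a6 spot lay in a damaged area) and 46000 in pool 2. Pool 2 therefore stands apart, and each value is given against both pools. In pooled cells, fewer cells of a type and less RNA per cell cannot be told apart.

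The 250 bases before the start of 4 mu genes are shown because Gstm1 and Gstm3 had close profiles in these data. The profiles of their neighbour Gstm2 and of the more distant Gstm5 lay further from both, though Gstm5 shared the array order of Gstm3. In the RefSeq annotation of GRCm38.p6 the cluster on chromosome 3 runs in the order Gstm5, Gstm7, Gstm6, Gstm3, Gstm2, Gstm1 and Gstm4, so Gstm2 lies between the pair. All 4 sequences are from RefSeq (GRCm38.p6), 5′ to 3′ on the gene's strand, and capitals mark matches to TGACNNNGC, the core of the antioxidant response element that NRF2 binds. For Gstm1, which has more than 1 annotated start, the outermost is used.
Gstm1 (chr3:108017974-108018223, minus strand): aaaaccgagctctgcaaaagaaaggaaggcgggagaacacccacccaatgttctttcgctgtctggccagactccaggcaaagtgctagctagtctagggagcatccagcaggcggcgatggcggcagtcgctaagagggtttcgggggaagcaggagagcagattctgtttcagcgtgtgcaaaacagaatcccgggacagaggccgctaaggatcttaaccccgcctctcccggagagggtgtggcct
Gstm3 (chr3:107969175-107969424, minus strand): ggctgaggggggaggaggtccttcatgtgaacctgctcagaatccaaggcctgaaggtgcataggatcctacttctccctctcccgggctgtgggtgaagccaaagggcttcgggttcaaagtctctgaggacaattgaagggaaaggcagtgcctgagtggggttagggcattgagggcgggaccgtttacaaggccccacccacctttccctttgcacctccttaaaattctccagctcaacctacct
Gstm2 (chr3:107986421-107986670, minus strand): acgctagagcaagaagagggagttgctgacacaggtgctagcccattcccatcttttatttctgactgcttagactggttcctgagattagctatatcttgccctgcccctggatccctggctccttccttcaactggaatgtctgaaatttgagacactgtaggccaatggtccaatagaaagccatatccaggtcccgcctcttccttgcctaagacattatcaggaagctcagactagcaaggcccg
Gstm5 (chr3:107895604-107895853, plus strand): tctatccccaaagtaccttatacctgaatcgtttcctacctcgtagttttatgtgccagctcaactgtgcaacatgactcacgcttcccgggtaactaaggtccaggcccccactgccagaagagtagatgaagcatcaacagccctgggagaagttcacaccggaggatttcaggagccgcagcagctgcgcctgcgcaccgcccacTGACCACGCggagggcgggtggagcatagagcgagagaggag
A search of both strands found the core in 2 of 15 such windows of the 10 genes, once in Gstm5, starting 42 bases before the start, and once in Gstm7. Among all 32851 windows of this length in the table, 10.2% held it. No match says only that these letters are absent from this window.

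Gstm1 and Gstm3 were the members with the largest differences. Gstm3 read 11.14 and 10.27 on KO_vs_WT 1 and 2, 11.85 in pool 1 and 12.05 in pool 2 (log2 Cy5 level throughout, quantile normalized over the 4 arrays). Each knockout array was thus lower than either pool. The genotypes differed by -1.24 ± 0.31 (SE, 2 arrays each), or 0.422 of wild type. Gstm1, whose product is a major mu enzyme of many tissues, read 12.87 and 11.93 in knockout and 13.58 and 13.55 in pools 1 and 2. Its difference was -1.17 ± 0.32 (SE, n = 2 arrays per group), or 0.446 of wild type, again with no overlap. A separate Gstm1 probe, on a dimmer part of its range, read 9.49 and 8.74 in knockout and 10.06 and 10.28 in wild type, a difference of -1.05.

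**Figure D1:**
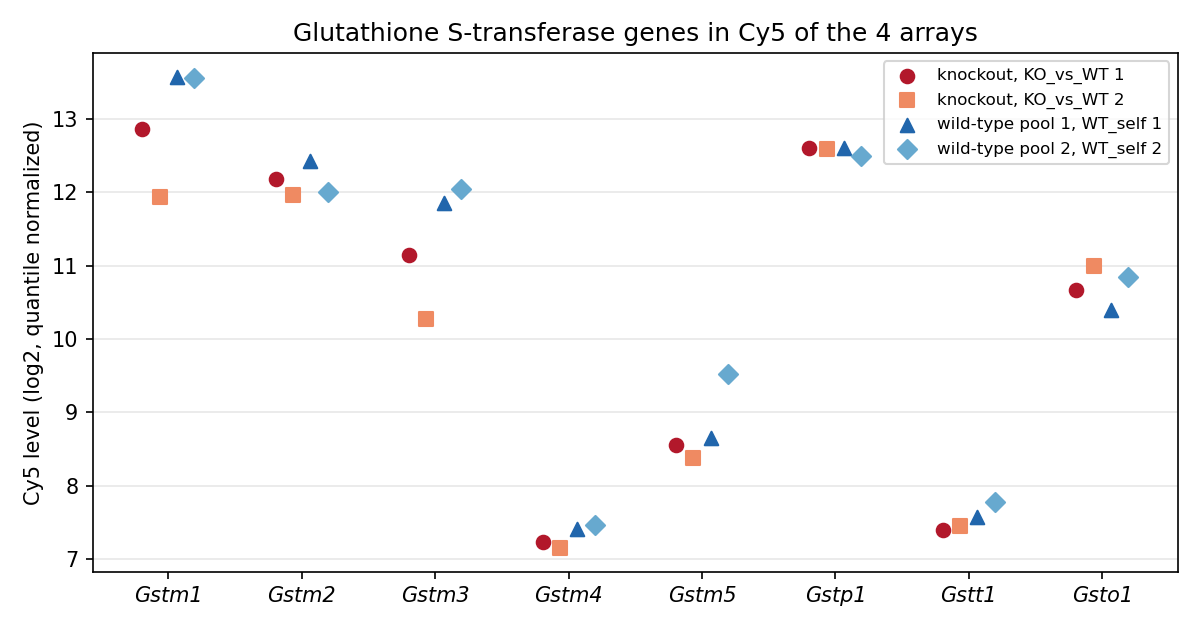
Log2 Cy5 level of the 8 measured genes on each of the 4 arrays, 1 point per array. In Gstm1 and Gstm3 the knockout arrays lie below both pools and apart from each other. Heights of different genes are not comparable, since each has its own probe.

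Against pool 1 the knockout mean was 0.442 of the level for Gstm1 and 0.452 for Gstm3, and against pool 2 it was 0.450 and 0.394. Among all genes, 8 of 16114 (0.0496%) stood at least 2-fold below both pools. These 8 include Gstm1, Gstm3, the proximal tubule genes Kap and Slc34a1, the urothelial gene Upk3a and the class II antigen gene H2-Ab1. Nothing is read from this share, since the members were chosen with these values known. With the scanner's processed signals the log2 difference from pool 1 was -0.90 in Gstm1 and -0.96 in Gstm3, so neither passed 2-fold there. Gstm3 also missed it against pool 1 (-0.98) when arrays were scaled to the 75th percentile. The other 6 members did not reach 2-fold against both pools. Against pool 1 alone, 2 members (Gstm1 and Gstm3) were at least 2-fold lower, as were 0.0939% of all genes. Against pool 2 alone there were 3, with Gstm5 added, and 2.33% of all genes.

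The knockout arrays also differed from each other in these genes. KO_vs_WT 2 stood below KO_vs_WT 1 by -0.93 in Gstm1, by -0.75 with its second probe, and by -0.87 in Gstm3. In all genes 0.378% fell by more than 0.5 between the knockout arrays. With 1 array each, this difference has no replicate. Without KO_vs_WT 2 the differences from wild type were -0.70 for Gstm1 and -0.81 for Gstm3, and without KO_vs_WT 1 they were -1.63 and -1.68.

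Some proximal tubule genes shared part of this order. Kap, an androgen-regulated protein gene of the proximal tubule, read 9.60 and 8.39 in knockout, 10.33 in pool 1 and 12.58 in pool 2. Slc34a1, the sodium-phosphate cotransporter gene, read 8.41, 7.75, 9.11 and 12.29 in the same order of arrays. Slc22a6, the organic anion transporter gene, did not share the knockout order, at 7.47 and 7.72 with 11.57 in pool 2 and no usable spot for pool 1. Over 8 such genes the median difference between the knockout arrays was -0.41. Their median was 2.60 for pool 2 minus pool 1 and -0.76 for knockout minus pool 1. For Gstm1 and Gstm3 the pools differed by -0.04 and 0.12, and by 0.27 with the second Gstm1 probe. Knockout minus pool 1 was -1.33 in Kap and -1.03 in Slc34a1, beside -1.18 in Gstm1 and -1.15 in Gstm3. The part of proximal tubule cells in the Gstm1 and Gstm3 differences was not tested.

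Gstm5, a mu gene known mainly from brain and testis, had the array order of Gstm3 but with other steps. It read 8.55 and 8.38 in knockout, 8.65 in pool 1 and 9.52 in pool 2. The knockout arrays were -0.10 and -0.27 from pool 1 and -0.97 and -1.14 from pool 2, so the difference of -0.62 ± 0.31 (SE, n = 2 arrays per group) came mostly from pool 2. Without WT_self 2 it was -0.18. At a scaling to the 75th percentile the difference from pool 2 was -0.78.

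Gstm2 and Gstm4 lay nearer to wild type. Gstm2, adjacent to both Gstm1 and Gstm3, read 12.18 and 11.97 in knockout, 12.43 in pool 1 and 12.01 in pool 2. Knockout was below pool 1 on both arrays but lay on either side of pool 2, with a difference of -0.14 ± 0.19 (SE, n = 2 arrays per group). Gstm4 read 7.23 and 7.14 in knockout and 7.41 and 7.46 in the pools, a difference of -0.25 ± 0.11. Its arrays did not overlap, at 0.843 of wild type. Gstm6 read 6.30 to 6.59 on the 4 arrays, not well above background on any.

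Gstp1, the pi enzyme gene, was nearly level by its brighter probe, at 12.61 and 12.59 in knockout, 12.60 in pool 1 and 12.49 in pool 2 (difference 0.05 ± 0.11, SE, n = 2 arrays per group). The dimmer Gstp1 probe read 9.56 and 9.45 in knockout and 9.67 and 9.84 in wild type, a difference of -0.25 with no overlap. The probes thus differed in sign. Gstt1, a theta enzyme gene, read 7.39 and 7.45 in knockout and 7.57 and 7.77 in wild type, a difference of -0.26 ± 0.13.

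Gsto1, the omega gene, was the member that read higher in knockout than in pool 1. It read 10.67 and 10.998 in knockout, 10.39 in pool 1 and 10.84 in pool 2. Knockout was above pool 1 on both arrays, at 1.36 of its level, and on either side of pool 2, at 0.996 of its level. The difference from pool 2 was 0.31 in log2 when arrays were scaled to the 75th percentile, so its sign against pool 2 depends on the scaling. KO_vs_WT 2 stood above KO_vs_WT 1 by 0.33, opposite to Gstm1 and Gstm3.

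**Figure D2:**
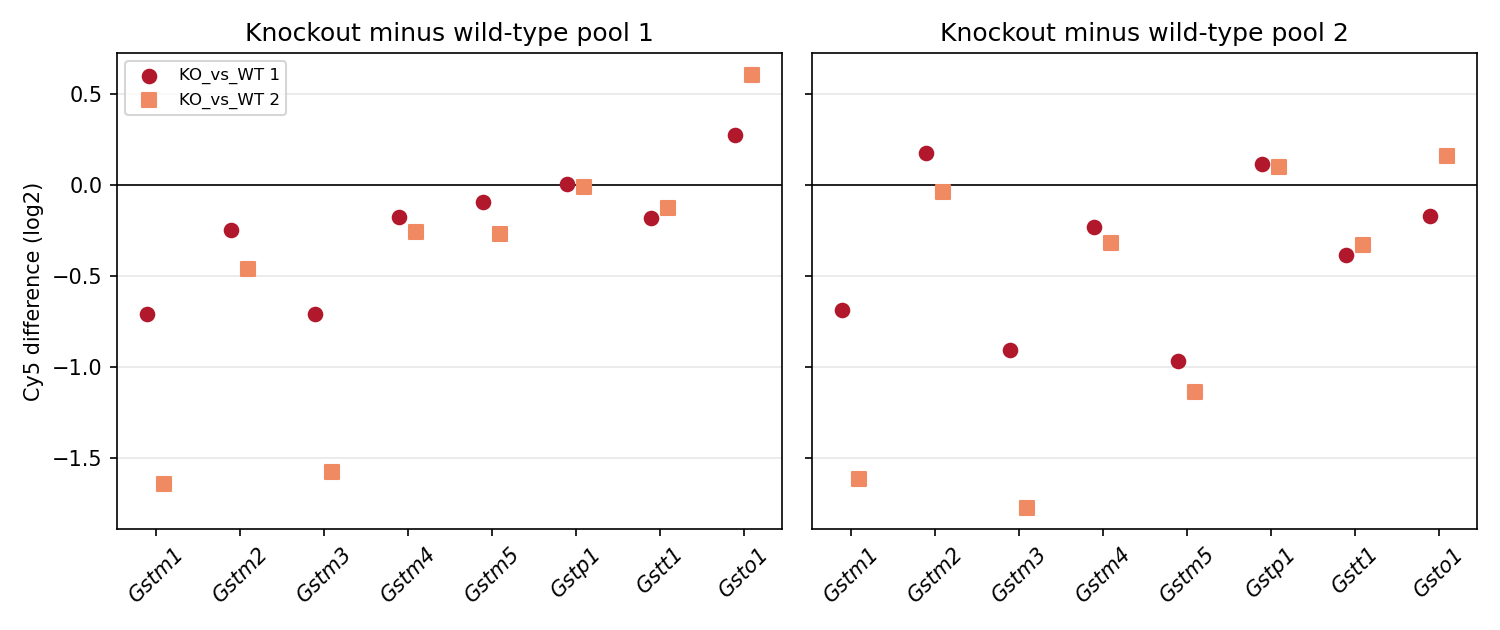
Log2 Cy5 difference of each knockout array from wild-type pool 1 (left) and pool 2 (right) for the 8 measured genes. Gstm1 and Gstm3 lie at -0.69 or lower against both pools, Gstm5 near 0 against pool 1 and near -1 against pool 2.

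Of the 8 measured members, 5 had both knockout arrays below both wild-type arrays (Gstm1, Gstm3, Gstm4, Gstm5 and Gstt1) and 0 had both above. In all genes the shares were 17.7% and 21.9%. Nothing is read from the members' count, since they were chosen with these values known. The median difference was -0.25 over the 8 members and 0.02 over all genes. limma called 0 of 16119 genes (0%) at an adjusted p under 0.05, with 701 (4.35%) at an unadjusted p under 0.05, so no member was called. Without WT_self 1, which leaves pool 2 as the only wild-type array, the median difference was -0.32 over the members and 0.05 over all genes.

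The array KO_vs_WT 2 held knockout and pool 2 together, which gives a ratio free of differences between arrays. Its log2 ratio of Cy5 over Cy3 was -1.76 for Gstm3 and -1.64 for Gstm1, or 0.295 and 0.320 of pool 2. The second Gstm1 probe gave -1.64. Gstm5 stood at -1.13, and the remaining members between -0.29 (Gstt1) and -0.03 (Gstm2). In all genes 2.11% were at least 2-fold lower in knockout on this array, and 43.5% were lower by any amount. With the scanner's log ratio in place of loess, Gstm5 stood at -1.42, Gstm4 at -0.62, Gstt1 at -0.41 and Gsto1 at -0.16. Gstm2 stood at 0.06 and Gstp1 at 0.0025 there, beside a median of 0.106 over all genes.

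The self arrays, where the ratio should be 0, give the dye background. Over the 8 members it ran from -0.15 to 0.20 on WT_self 1 and from -0.26 to 0.10 on WT_self 2. Gsto1 read -0.15 and -0.26 there and -0.13 on the shared array. With the mean self ratio taken off, Gsto1 stood at 0.07, and Gstm1, Gstm3 and Gstm5 at -1.54, -1.75 and -1.19. Centring the array on its median in place of the intensity-dependent loess moved the median of all genes to 0.40 and these 3 genes to -0.92, -1.01 and -0.44, which is still below that median, as were Gstm4 and Gstt1 (0.13 and 0.12). Gstm2, Gstp1 and Gsto1 stood above it, at 0.71, 0.61 and 0.63. This array alone carries the ratio, so it has no replicate.

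**Figure D3:**
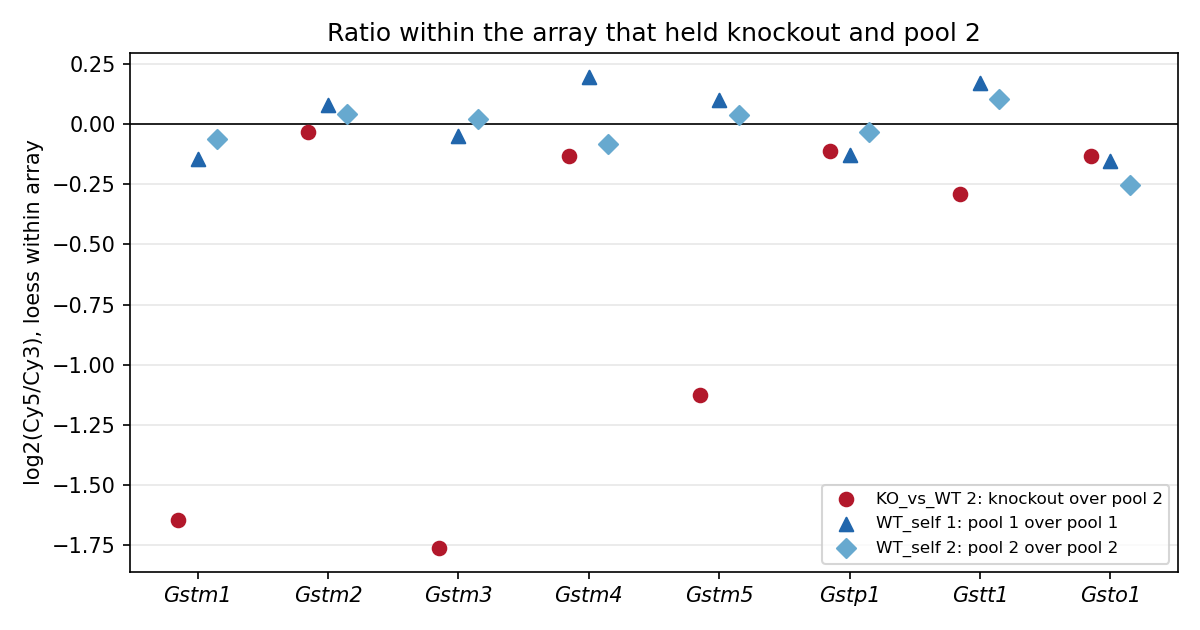
Log2 ratio of Cy5 over Cy3 for the 8 measured genes on the array with knockout and pool 2, and on the arrays with the same pool in both dyes. The self ratios lie between -0.26 and 0.20, while Gstm1, Gstm3 and Gstm5 on the shared array lie at -1.13 or lower.

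The wild-type pools were set against each other in Cy5 of the self arrays, in Cy3 of the self arrays, and in Cy3 with the shared array in place of WT_self 2. These 3 channel pairs measure the same 2 pools, so their SD is technical. Gstm5 was higher in pool 2 in each pair, by 0.87, 0.80 and 0.79, or 0.82 ± 0.04 (SD, 3 channel pairs), which is 1.77-fold. Gsto1 was higher in each by 0.45, 0.49 and 0.53, or 0.49 ± 0.04 (1.40-fold). In all genes 2.83% were at least 1.5-fold higher in pool 2 in all 3 pairs.

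Gstm2 was lower in pool 2 in each pair, at -0.42, -0.39 and -0.36, or 0.763 of pool 1. Gstm3 stood at 0.12 ± 0.07 and Gstm1 at -0.04 ± 0.05, with 0.27 ± 0.05 by the second Gstm1 probe (SD, 3 channel pairs each). For comparison, KO_vs_WT 1 stood at -0.57 against pool 1 by that second probe. Gstm4 and Gstt1 were above pool 1 by 0.14 ± 0.12 and 0.18 ± 0.06. Gstp1 was lower by its brighter probe (-0.14 ± 0.07) and higher by the dimmer (0.12 ± 0.05). By the probes that stand for each gene, 5 of 8 members were higher and 2 lower in pool 2 in all 3 pairs. The shares over all genes were 31.9% and 41.2%.

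**Figure D4:**
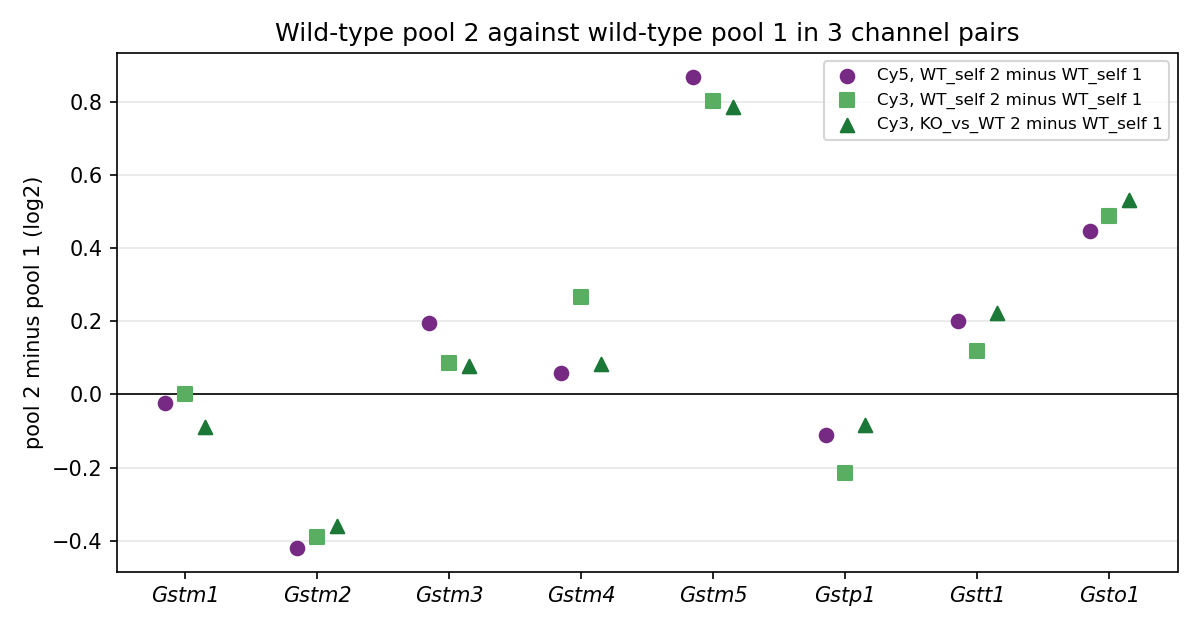
Log2 difference of wild-type pool 2 from pool 1 in 3 channel pairs for the 8 measured genes. Gstm5 lies near 0.8 and Gsto1 near 0.5 in each pair, Gstm2 near -0.4, and Gstm1 near 0.

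The profile of Gstm1 was the closest among the members to that of Gstm3, at a distance of 0.215 log2 units over the 7 usable channels, centred within each dye. It was the second nearest of 8198 genes with signal in all 7. The next member, Gstm5, lay at 1.10. Near genes outside the family were the class II antigen gene H2-Ab1 (0.204), the apolipoprotein gene Apoc1 (0.425), the sterol transporter gene Abcg5 (0.542) and Sptssb (0.596), which encodes a small subunit of serine palmitoyltransferase. H2-Ab1 read 7.92 and 7.05 in knockout and 8.55 and 8.58 in wild type, close to the Gstm3 steps. These 7 channels hold only RNA of knockout cells and of the wild-type pools, so the likeness is a description. The source labels do not say whether both knockout channels hold the same pool.

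Mu genes are close in sequence, and a probe for one can bind the transcript of another. Probe sequences were not used here, so how much of the likeness of Gstm1 and Gstm3 comes from shared binding was not tested. Gstm2 and Gstm4, of the same class, lay at distances of 1.32 and 1.15 from Gstm3. Gstm4 had the array order of Gstm3 with smaller steps (-0.25 beside -1.24 between genotypes), and Gstm2 did not have that order. Gstm4 was much dimmer than Gstm3, and its difference moved to -0.335 with a background offset of 10. These step sizes are therefore not directly comparable. The Gstp1 probes may likewise bind the transcript of the near-identical Gstp2, for which no probe was matched.

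The remaining glutathione transferases had a median nearer to pool 1 than to pool 2. Of 18 listed genes 12 were tested, and 0 rose and 0 fell by limma, with 0 at an unadjusted p under 0.05. Their median difference was -0.24, with -0.03 against pool 1 and -0.62 against pool 2, beside -0.0049 and 0.05 over all genes. The alpha gene Gsta2 read 6.85 and 6.79 in knockout, 6.96 in pool 1 and 9.90 in pool 2, and the theta gene Gstt2 8.77, 8.69, 8.84 and 10.07. Gsta3, also alpha, read 10.86 and 10.87 in knockout against 10.75 and 10.50, and Gstt3 10.90 and 11.05 against 10.82 and 10.71. Gstt2 and Gsta2 were thus near pool 1 in knockout, as Gstm5 was, and both stood higher in the pool with the higher proximal tubule markers. That part of the pool difference was not tested.

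Genes that make, break down and export glutathione had a median near pool 1, while the named genes Abcc4 and Cndp2 stood apart from both pools. Of 20 listed, 15 were tested, and 0 rose and 0 fell by limma. An unadjusted p under 0.05 was found for 2, beside 4.35% of all genes. These 2, Abcc4 and Cndp2, are named for the smallest p of the list. The median of the 15 was 0.00 against pool 1 and -0.62 against pool 2, beside -0.0049 and 0.05 over all genes. Abcc4, an efflux pump, read 9.75 and 9.85 in knockout and 9.27 and 8.93 in wild type (difference 0.70 ± 0.16, SE; limma adjusted p = 0.799). Cndp2, the dipeptidase that splits cysteinylglycine, read 9.20 and 9.17 against 9.59 and 9.80 (-0.51 ± 0.13, limma adjusted p = 0.799). Gclc, the catalytic subunit of the first enzyme of glutathione synthesis, stood at 0.41 ± 0.21 and Chac2, a glutathione-degrading enzyme, at -0.26 ± 0.13.

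Glutathione-using enzymes were tested for 14 of 14 genes, of which 0 rose and 0 fell by limma, with 0 at an unadjusted p under 0.05. Their medians were -0.03 against pool 1 and -0.56 against pool 2. Gpx3, the secreted peroxidase made mainly by the proximal tubule, read 8.15 and 8.29 in knockout, 8.71 in pool 1 and 11.61 in pool 2. The esterase gene Esd stood at -0.43 ± 0.19 (SE), the peroxidase gene Gpx7 at -0.25 ± 0.11 and the glutaredoxin gene Glrx5 at -0.34 ± 0.23.

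NRF2, its regulators and its targets had differences in either direction, and none was called. Of 24 listed genes 23 were tested, 0 rose and 0 fell by limma, 0 had an unadjusted p under 0.05, and the median was -0.08. The thioredoxin reductase gene Txnrd1 stood at 0.36 ± 0.15 (SE), the NRF2 partner gene Mafg at 0.36 ± 0.16, the sulfiredoxin gene Srxn1 at 0.40 ± 0.21 and Osgin1, an oxidative stress-induced growth inhibitor gene, at -0.37 ± 0.21. Larger differences, named after their values were seen, were those of the carbonyl reductase gene Cbr1 (1.00), the heme oxygenase gene Hmox1 (-0.68) and the isocitrate dehydrogenase gene Idh1 (-0.62). All 3 stood nearer to pool 1 (-0.18, -0.09 and -0.06) than to pool 2 (2.17, -1.27 and -1.18). Medians were -0.03 against pool 1 and -0.15 against pool 2.

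**Figure D5:**
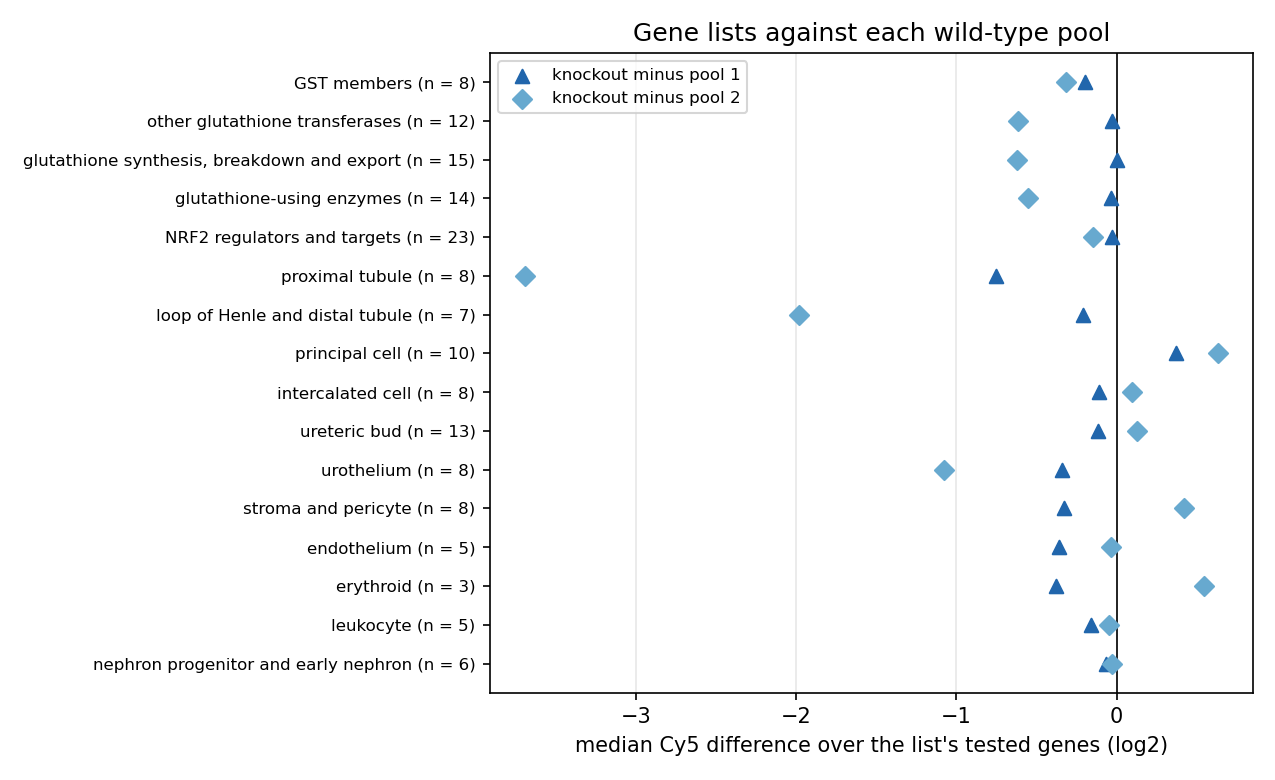
Median log2 Cy5 difference of knockout from pool 1 (triangles) and pool 2 (diamonds) over the tested genes of each list, with the number of genes. The lists of other transferases, of glutathione synthesis and of glutathione-using enzymes lie near 0 against pool 1 and near -0.6 against pool 2, and the proximal tubule list at -0.76 and -3.69.

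Lists of other cell types are given by their medians in the same comparisons, with no test. Medians of knockout against pool 1 and pool 2 were -0.21 and -1.98 for loop of Henle and distal tubule, -0.34 and -1.08 for urothelium, -0.33 and 0.42 for stroma and pericytes, -0.36 and -0.04 for endothelium, and 0.37 and 0.63 for principal cells. For erythroid genes they were -0.38 and 0.55, for leukocyte genes -0.16 and -0.05, for intercalated cells -0.11 and 0.10, for ureteric bud -0.12 and 0.13, and for the early nephron -0.07 and -0.03. Whether these cells bear on the transferase levels was not tested.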

How the data were processed

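Cy5 and Cy3 intensity was deposited per spot, as median signal, local background and the scanner's processed signal from Agilent Feature Extraction 10.7.3.1, per the file headers. A log10 ratio of processed Cy5 over Cy3 was also deposited, and the series table was identical to it in 45018 of 45018 spots. Median signals were corrected with normexp (offset 50) and quantile normalized within a dye (4 arrays in Cy5, 3 in Cy3). Ratios were loess normalized within arrays. Controls, flagged outlier spots and 389 spots of a damaged area of WT_self 1 were left out. Probes entered where Cy5 was well above background on both knockout or both wild-type arrays, with at most 1 array missing, and the brightest stood for a gene. No spot was saturated. Accessions gave 22951 of 41174 probes a RefSeq symbol (GRCm38.p6). limma 3.58.1 in R 4.3.3 was fitted over all 16119 genes (two-sided, Benjamini-Hochberg, threshold 0.05) and tested on simulated data.

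The members and lists were chosen with earlier results of these data known. Named from the lists are up to 4 genes of each with the smallest unadjusted p, and for likeness the 5 nearest to Gstm3. Some genes these rules pick are not reported here. The labels do not say that arrays of a group hold RNA of different animals, so p-values measure only the spread between these arrays. Same-numbered arrays of the groups share only a wild-type pool number. Alternatives tried were other background correction, scaling, filter and probe rules, the damaged area kept, ratios, a replicate block and each array left out.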

Additional observations from a re-analysis of the deposited data

Results flagged for a closer look

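Of the 20 transferase genes tested, Mgst3 and Gstk1 lay between the wild-type pools on both knockout arrays. Mgst3, a microsomal transferase gene, was 0.14 above pool 1 and stood at -0.66 against pool 2 in log2. Gstk1, the kappa class gene, was 0.15 above pool 1 and stood at -0.58 against pool 2. In all genes 11% had this order, close to the share among the 20, so nothing is read from the count. The difference between the comparisons was not tested, and both share the knockout arrays. They were named after their values were seen.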

How the results depend on the processing

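With 2 arrays per group, precision is limited by their number, and Gstm6 could not be measured above background. limma called 0 of all genes in each setting that kept all 4 arrays, and 0 to 4229 with 1 array left out. The 4229, and 3 of 8 members among them, came without WT_self 1, where pool 2 is the only comparator and its spread is taken from the knockout arrays. Called genes of the glutathione and NRF2 lists ran from 0 to 38 with 1 array left out. The median difference of the 8 members was -0.25, and -0.32 to -0.20 with 1 array left out. Gstm1, Gstm3, Gstm4, Gstm5 and Gstt1 stayed below 0 in 12 of 12 alternatives, Gstm2 in 10, Gstp1 in 2 and Gsto1 in 1. Gstm1 was nearest to 0, at -0.69, with log ratios within arrays, which include the array with no usable Cy3.

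The replicate block, with the pool number as block, gave 0 called genes and a median of -0.25. The deviations of same-numbered arrays correlated at r = 0.038 over genes, so the numbers were not taken to pair them. The block changed no call. The median of pool 2 minus pool 1 over the members was 0.13 in Cy5, 0.10 in Cy3 of the self arrays, 0.081 with the shared array and 0.21 with processed signals. The median ratio on the shared array was -0.21, and -0.52 with the scanner's log ratio, -0.31 with the self ratio taken off and 0.13 with median centring, which moved all genes to 0.40. The causes were not tested. The comparisons with each pool under other scalings were chosen after seeing the data.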

Other observations

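Gstm5 had near matches outside the family, a search added after its values were seen. Over the 7 channels its 5 nearest genes, at 0.104 to 0.123 log2 units, were Npm3, Hadh, Dnajc19, Eci1 and Uchl1. Hadh and Eci1 encode mitochondrial enzymes of fatty acid oxidation and Dnajc19 a protein of the mitochondrial inner membrane. Knockout Hadh stood at -0.09 against pool 1 and -1.04 against pool 2, beside -0.18 and -1.05 for Gstm5.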
